A study of Mus musculus with 9 samples.

Results

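Cholesterol synthesis was followed through 26 genes that encode the enzymes from acetyl-CoA to cholesterol and the proteins of the sterol-sensing SREBP2 system. The genes were chosen by name from the pathway and not by a threshold on their counts, but with earlier results of these data known. All 26 were found among the 26282 genes with at least 1 unique molecular identifier (UMI) in the files. The samples were livers of 9 wild-type male C57BL/6 mice, 8 weeks old, studied by Drop-seq, in which single cells meet barcoded beads in droplets and each captured transcript is counted by its UMI. The mice carried no transgene or mutation that the labels name. PBS was given into a vein to mice 1, 4 and 7, AAVrh.10Null to mice 2, 5 and 8, and AAVrh.10mCherry to mice 3, 6 and 9, with 1 library per liver and n = 3 mice per group. AAVrh.10 is a serotype of adeno-associated virus, a gene transfer vector with good access to liver cells, and mCherry is a red fluorescent protein. The labels do not describe the Null vector further. Dose, promoter and the interval from injection to collection are not stated in the labels. AAVrh.10Null thus differs from PBS by the vector, and AAVrh.10mCherry from AAVrh.10Null by the fluorescent protein as far as the names go.

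Cholesterol is built from acetyl-CoA through mevalonate, which is turned into isoprenoid diphosphates, and these are joined into squalene, closed into the ring sterol lanosterol and trimmed to cholesterol. The liver is a main site of this synthesis. When sterols in the endoplasmic reticulum are low, the escort protein encoded by Scap carries the precursor of SREBP2, the product of Srebf2, to the Golgi, where it is cut to release a transcription factor for the genes of the pathway. When sterols are plentiful, the proteins encoded by Insig1 and Insig2 hold the escort back, and Insig1 is itself a target of SREBP2.

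Stretches of 6 promoters are shown here, of genes that hold a sterol regulatory element or whose levels followed a similar order over the livers, because SREBP2 and its partner factors are known to act through short elements close to the start of transcription. They were taken from RefSeq (GRCm38.p6), in which 22 of the 26 genes had a promoter window of 250 bases before to 50 bases after the start. Capitals mark TCACNCCA, a spelled-out form of the sterol regulatory element, and CCAAT, the box bound by NF-Y, each on either strand (ATTGG is CCAAT read on the other strand).
Hmgcs1, chr13:119690173-119690262, plus strand: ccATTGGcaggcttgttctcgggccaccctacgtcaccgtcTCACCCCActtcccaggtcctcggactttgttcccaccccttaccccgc
Srebf2, chr15:82147066-82147155, plus strand: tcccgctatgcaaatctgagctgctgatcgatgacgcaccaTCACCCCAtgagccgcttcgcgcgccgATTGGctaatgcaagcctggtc
Msmo1, chr8:64733737-64733766, minus strand: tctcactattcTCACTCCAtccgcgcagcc
Cyp51, chr5:4104710-4104739, minus strand: ccgctgtccgccaCCAATctggtcctgaga
Idi1, chr13:8885576-8885605, plus strand: catggtccaaggtgccATTGGctggcgacc
Nsdhl, chrX:72918399-72918518, plus strand: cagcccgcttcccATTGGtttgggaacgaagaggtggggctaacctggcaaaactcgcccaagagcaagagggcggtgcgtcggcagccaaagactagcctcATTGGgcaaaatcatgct
All of these stretches end before the annotated start. TCACNCCA was found in 3 of the 22 promoters (13.6%), those of Hmgcs1, Msmo1 and Srebf2, and in 4.97% of the 27025 genes with a window. CCAAT was found in 19 of the 22 (86.4%) and in 41.1% of all genes. The E-box CACGTG was found in 5 of the 22 (22.7%, against 8.09% of all), those of Dhcr7, Hsd17b7, Insig1, Sc5d and Scap. The GC box GGGCGG was found in 20 of the 22 (90.9%, against 38.2%). TCACNCCA and CCAAT can share letters but do not in the stretches shown, and a match describes these letters only.

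The libraries differed in depth and RNA content before any comparison. After keeping the 44898 of 48000 barcodes with at least 200 genes, the livers held 291338 (mouse 7) to 11220147 (mouse 1) UMIs, and the other 7 held 4234127 to 8585136. All 9 hepatocyte markers (Alb, Apoa1, Ttr and others) were detected in every liver and summed to 82520 to 111300 CPM (UMIs of a gene per 1000000 UMIs of all genes in a liver), and 2.003 to 7.64% of barcodes carried at least 2 different markers of other liver cells, with the highest share in mouse 7. Malat1, a nuclear long RNA, was highest in mice 2, 7 and 8 (23010, 15940 and 15020 CPM), followed by mouse 6 (10260), and the other 5 livers held 2769 to 6307. Only 7, 20 and 174 barcodes of mice 2, 8 and 7 ended in an undetermined base, against 1056 to 1735 in the other 6 livers. The red cell markers summed to 2471 CPM in mouse 2 and to 59.9 to 1238 in the other 8 livers. mCherry was counted at 7979, 6150 and 1797 CPM in mice 3, 6 and 9, at 24.3 in mouse 1 and 22.7 in mouse 5, and at 0 or 1 UMI in the other 4 livers. Pairs of libraries shared 0 to 6 barcodes. All levels below are CPM. In sums over a whole liver, fewer cells of a type and less RNA per cell cannot be told apart.

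None of the 26 genes passed the test between groups. In edgeR's quasi-likelihood test with Benjamini-Hochberg adjustment over 11321 genes, the smallest adjusted p of a pathway gene was 0.332 for AAVrh.10Null against PBS, 0.498 for AAVrh.10mCherry against PBS, 0.312 for the mean of both vector groups against PBS and 0.615 for AAVrh.10mCherry against AAVrh.10Null. The share of all genes called was 0.00883%, 0%, 0% and 0.00883% in the same order, so almost nothing was called anywhere. DESeq2 and limma-voom also called 0 of the 26 in each comparison. At an unadjusted p under 0.05, 3, 3, 3 and 0 of the 26 were counted, and 12.9%, 9.52%, 11.8% and 8.07% of all genes, so the share of pathway genes was near the background. By direction, AAVrh.10Null against PBS had 1 pathway gene higher and 2 lower (9.92% and 2.98% of all genes), AAVrh.10mCherry against PBS 0 and 3 (8.74% and 0.786%), the mean of both 1 and 2 (10.1% and 1.76%), and AAVrh.10mCherry against AAVrh.10Null 0 and 0 (5.64% and 2.43%). Counted by livers that do not overlap, 0 of the 26 were higher and 4 lower in AAVrh.10Null than in PBS (12.3% and 6.87% of all genes). In AAVrh.10mCherry 1 was higher and 3 lower than in PBS (14.4% and 2.37%), and 0 were higher and 1 lower in all 6 vector livers (6.24% and 1.08%).

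More pathway genes lay below 0 than above it in the vector groups against PBS, by counts that moved with single mice. Against PBS, 18 of 26 log2 differences were below 0 for AAVrh.10Null (median -0.19), where 48.0% of all genes were below 0 (median 0.02). For AAVrh.10mCherry 16 of 26 were below 0 (median -0.18), where 35.0% of all genes were (median 0.16). For the mean of both 17 of 26 were (median -0.17), where 41.6% of all genes were (median 0.09). For AAVrh.10mCherry against PBS, TMM scaling moved the median of all genes to 0.02 and the median of the 26 to -0.33, with 20 of 26 below 0. Between the vector groups 12 of 26 were below 0 (median 0.06; all genes 38.2% and 0.11), and with TMM scaling 16 were, so the side on which their median lay changed with the scaling. The comparisons against PBS share the same 3 PBS livers. Leaving out 1 mouse at a time gave 15 to 19 of 26 below 0 for AAVrh.10Null, with a median of -0.02 without mouse 4, -0.10 without mouse 2, -0.30 without mouse 5 and -0.36 without mouse 7, the shallowest. The medians of all genes were 0.10, -0.04, 0.02 and 0.01 in the same order. For AAVrh.10mCherry, leaving out 1 mouse gave 14 to 21, with a median of -0.05 without mouse 3 (all genes 0.19) and -0.28 without mouse 9 (all genes 0.14). For the mean of both it gave 14 to 20, with a median of -0.10 without mouse 3 (all genes 0.10) and -0.28 without mouse 5 (all genes 0.08). With every liver thinned to 291338 UMIs, 10 of the 20 genes tested were below 0 for AAVrh.10Null (median -0.03, all genes -0.06). With all deposited barcodes the medians were -0.08 for AAVrh.10mCherry (all genes 0.21) and -0.04 for the mean of both (all genes 0.15), so the median of all genes moved up as well. Leaving out mice 2 and 8 left mouse 5 alone in the AAVrh.10Null group and gave 12 of 26 below 0 (median 0.07, all genes -0.01). Mice 2 and 8 also held high Malat1, and its part in the difference was not tested.

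**Figure D1:**
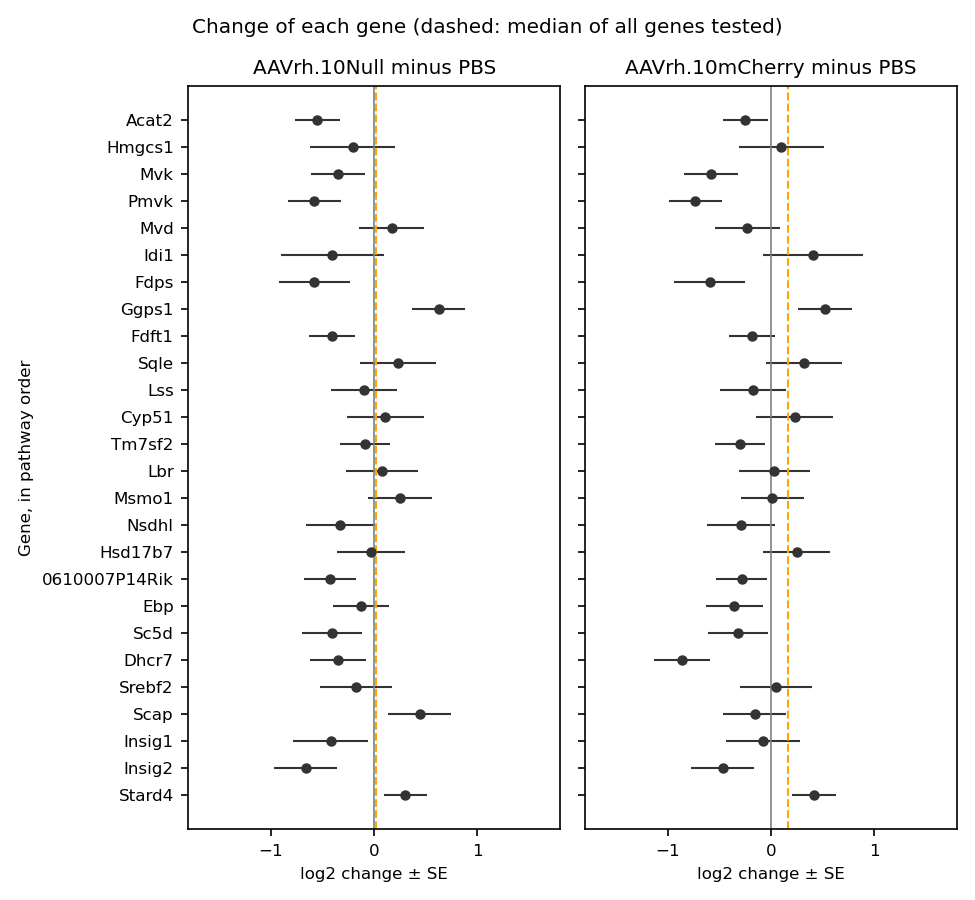
log2 change ± SE of each of the 26 genes (vertical axis, in pathway order) for AAVrh.10Null minus PBS and AAVrh.10mCherry minus PBS, with n = 3 mice per group; the grey line is 0 and the dashed line the median of all genes tested. Most points lie left of 0 in both panels (18 and 16 of 26). Ggps1, Sqle, Cyp51, Lbr, Msmo1 and Stard4 lie right of it in both, Lbr in both panels and Msmo1 in the AAVrh.10mCherry panel close to the line. None of the 26 passed the adjusted test.

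The enzymes that make HMG-CoA open the pathway. Acat2, the cytosolic thiolase that joins acetyl-CoA units, stood at 56.3, 42.6 and 30.9 CPM in PBS mice 1, 4 and 7, at 29.5, 35.7 and 29.6 in AAVrh.10Null mice 2, 5 and 8, and at 38.4, 41.8 and 36.3 in AAVrh.10mCherry mice 3, 6 and 9. The 3 AAVrh.10mCherry livers lay above the 3 AAVrh.10Null livers, as 12.0% of all genes did, and the PBS livers spanned both. Mouse 9 lay above mouse 5 by a margin smaller than the counting error. The log2 difference of AAVrh.10Null from PBS was -0.55 ± 0.22 (SE; unadjusted p = 0.0284, adjusted p = 0.332 in edgeR) and -0.31 without mouse 1. Hmgcs1, the cytosolic HMG-CoA synthase, stood at 303, 329 and 117 in PBS, 132, 325 and 209 in AAVrh.10Null, and 193, 229 and 402 in AAVrh.10mCherry livers. It varied 3.44-fold between livers, and every group held both low and high livers.

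In the steps from mevalonate to the isoprenoids, Pmvk was lower by value in every vector liver than in any PBS liver. Pmvk, the phosphomevalonate kinase (chr3:89454541-89469013, plus strand, mm10), stood at 71.0, 91.5 and 72.1 CPM in PBS mice 1, 4 and 7, at 37.0, 54.6 and 67.2 in AAVrh.10Null mice 2, 5 and 8, and at 44.5, 41.0 and 57.0 in AAVrh.10mCherry mice 3, 6 and 9. Such a separation of all 6 vector livers below all 3 PBS livers was seen for 1.08% of all genes. The mean of Pmvk was 78.2 ± 11.5 in PBS, 52.9 ± 15.1 in AAVrh.10Null and 47.5 ± 8.40 in AAVrh.10mCherry livers (SD, n = 3). The log2 difference of the mean of both vector groups from PBS was -0.66 ± 0.22 (SE; unadjusted p = 0.0103, adjusted p = 0.312 in edgeR), and it was -0.69 without mouse 7 and -0.63 without mice 2 and 8.

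Mvk, the mevalonate kinase that acts just before it (chr5:114444269-114460591, plus strand), stood at 26.02, 22.9 and 20.6 in PBS, at 17.6, 23.8 and 15.2 in AAVrh.10Null, and at 11.6, 20.2 and 16.3 in AAVrh.10mCherry livers. The AAVrh.10mCherry livers lay below the PBS livers, as did 2.37% of all genes. Mouse 7 rests on 6 UMIs, and mice 7 and 6 differ by less than that counting error. With all its barcodes counted, mouse 7 held 20 UMIs of Mvk at 18.5 CPM, below mouse 6, so the separation was not kept. The log2 difference of AAVrh.10mCherry from PBS was -0.58 ± 0.26 (SE, unadjusted p = 0.0460, adjusted p = 0.518 in edgeR). Ggps1, the geranylgeranyl diphosphate synthase of the branch that feeds protein prenylation, went the other way. It stood at 7.75, 8.06 and 13.7 in PBS, at 14.8, 10.4 and 13.2 in AAVrh.10Null, and at 11.1, 12.1 and 12.7 in AAVrh.10mCherry livers. Among barcodes with at least 200 genes, only mouse 7, with 4 UMIs, kept the PBS livers from lying below all vector livers. With all its barcodes counted, mouse 7 held 18 UMIs of Ggps1 at 16.6 CPM, above every vector liver. The log2 difference of AAVrh.10Null from PBS was 0.62 ± 0.26 (SE; unadjusted p = 0.0330, adjusted p = 0.348 in edgeR), and among all genes 9.92% had an unadjusted p under 0.05 on that side. It was 0.31 without mice 2 and 8 and 1.28 in barcodes with at least 500 genes. Of the other enzymes of this stretch, Mvd (the decarboxylase) ranged from 6.87 to 15.4, Idi1 (the isomerase) from 0 UMIs in mouse 7 to 26.5, and Fdps (the farnesyl diphosphate synthase) from 36.0 to 122 CPM, with overlapping groups in each comparison. The 0 UMIs of Idi1 allow a level of up to 12.7 (upper bound of the exact 95% Poisson interval).

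Of the genes of squalene synthesis and ring closure, only Fdft1 had groups that did not overlap. Fdft1, the squalene synthase, stood at 61.8, 55.0 and 61.8 in PBS, at 45.2, 52.7 and 36.0 in AAVrh.10Null, and at 42.0, 62.9 and 51.1 in AAVrh.10mCherry livers. The AAVrh.10Null livers lay below the PBS livers, as did 6.87% of all genes, mouse 5 under mouse 4 by a margin smaller than the counting error. The log2 difference of AAVrh.10Null from PBS was -0.41 ± 0.23 (SE, adjusted p = 0.463 in edgeR) and -0.17 without mice 2 and 8. Sqle, the squalene epoxidase, ranged from 10.3 to 72.3 and Lss, the lanosterol synthase, from 16.5 to 40.6, with overlapping groups throughout.

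Among the 10 genes that take lanosterol to cholesterol, Dhcr7 had the lowest values in the AAVrh.10mCherry livers. Dhcr7 encodes the reductase that makes cholesterol from its immediate precursor (chr7:143823145-143848410, plus strand). It stood at 43.9, 68.6 and 37.8 CPM in PBS mice 1, 4 and 7, at 40.9, 38.3 and 44.3 in AAVrh.10Null mice 2, 5 and 8, and at 29.5, 19.8 and 36.8 in AAVrh.10mCherry mice 3, 6 and 9. The AAVrh.10mCherry livers lay below both other groups, with mouse 9 close under mice 7 and 5. Mouse 7 rests on 11 UMIs of Dhcr7. With all its barcodes counted, it held 37 UMIs at 34.2 CPM, below mouse 9, so the separation from PBS was not kept. The means of Dhcr7 were 50.1 ± 16.3, 41.2 ± 3.02 and 28.7 ± 8.54 (SD, n = 3). The log2 difference from PBS was -0.86 ± 0.27 (SE; unadjusted p = 0.00774, adjusted p = 0.498 in edgeR), where 0.786% of all genes had an unadjusted p under 0.05 on the lower side. It was -0.54 without mouse 4, -0.96 without mouse 7 and -0.14 when every liver was thinned to 291338 UMIs. The difference from AAVrh.10Null was -0.51 ± 0.26 (SE; adjusted p = 0.630 in edgeR), and 4.55% of all genes lay lower without overlap there.

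0610007P14Rik, the symbol in the files for Erg28, which encodes a scaffold that holds sterol enzymes together, stood at 118, 107.1 and 130.4 in PBS, at 64.6, 106.8 and 90.8 in AAVrh.10Null, and at 104.5, 73.6 and 110.3 in AAVrh.10mCherry livers. The AAVrh.10Null livers lay below the PBS livers, as did 6.87% of all genes, mouse 5 by a margin smaller than the counting error. The log2 difference was -0.43 ± 0.25 (SE; adjusted p = 0.486 in edgeR) and -0.14 without mice 2 and 8. The other 8 genes of this stretch had overlapping groups in every comparison. Their highest counts came from Sc5d, the desaturase, at 290 to 705 CPM, and Ebp, the isomerase, at 182 to 363. Cyp51, the lanosterol demethylase, ranged from 58.4 to 203, Msmo1, the methylsterol oxidase, from 92.7 to 239, and Tm7sf2, a sterol reductase, from 47.1 to 90.02. Counts of different genes are not scaled to transcript length here, and their order between genes is not read.

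In the sterol-sensing system, Insig2 was lower in the AAVrh.10Null livers than in the PBS livers by value. Stard4 was higher in the AAVrh.10mCherry livers than in the PBS livers. Taken over all vector livers, both genes overlapped with PBS. Insig2, the retention protein that is not driven by SREBP2, stood at 392, 369 and 275 CPM in PBS mice 1, 4 and 7, at 181, 255 and 223 in AAVrh.10Null mice 2, 5 and 8, and at 342, 139.5 and 272 in AAVrh.10mCherry mice 3, 6 and 9. The AAVrh.10Null livers lay below the PBS livers, as did 6.87% of all genes, mouse 5 under mouse 7 by a margin smaller than the counting error. The log2 difference of AAVrh.10Null from PBS was -0.66 ± 0.31 (SE, unadjusted p = 0.0515, adjusted p = 0.390 in edgeR). Insig1 stood at 326, 148 and 275 in PBS, 104, 274 and 178 in AAVrh.10Null, and 195, 274 and 237 in AAVrh.10mCherry livers, with no order between the groups. The ratio of Insig2 to Insig1 UMIs ran from 0.509 in mouse 6 to 2.49 in mouse 4.

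Stard4 encodes a protein that carries cholesterol between membranes. It stood at 93.5, 67.9 and 68.6 in PBS, at 101.4, 88.3 and 98.2 in AAVrh.10Null, and at 96.9, 113 and 101.6 in AAVrh.10mCherry livers. The AAVrh.10mCherry livers lay above the PBS livers, as did 14.4% of all genes, mouse 3 over mouse 1 by a margin smaller than the counting error. The log2 difference of AAVrh.10mCherry from PBS was 0.41 ± 0.21 (SE, adjusted p = 0.541 in edgeR) and 0.71 after thinning. Scap stood at 26.7, 48.0 and 54.9 in PBS, at 62.3, 38.0 and 63.5 in AAVrh.10Null, and at 35.6, 29.1 and 43.2 in AAVrh.10mCherry livers, highest in mice 2 and 8. Its log2 difference between the vector groups was -0.60 ± 0.29 (SE; unadjusted p = 0.0562, adjusted p = 0.615 in edgeR) and -0.08 without mice 2 and 8. Srebf2 itself was thinly counted at 4.96 to 13.7, with overlapping groups.

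**Figure D2:**
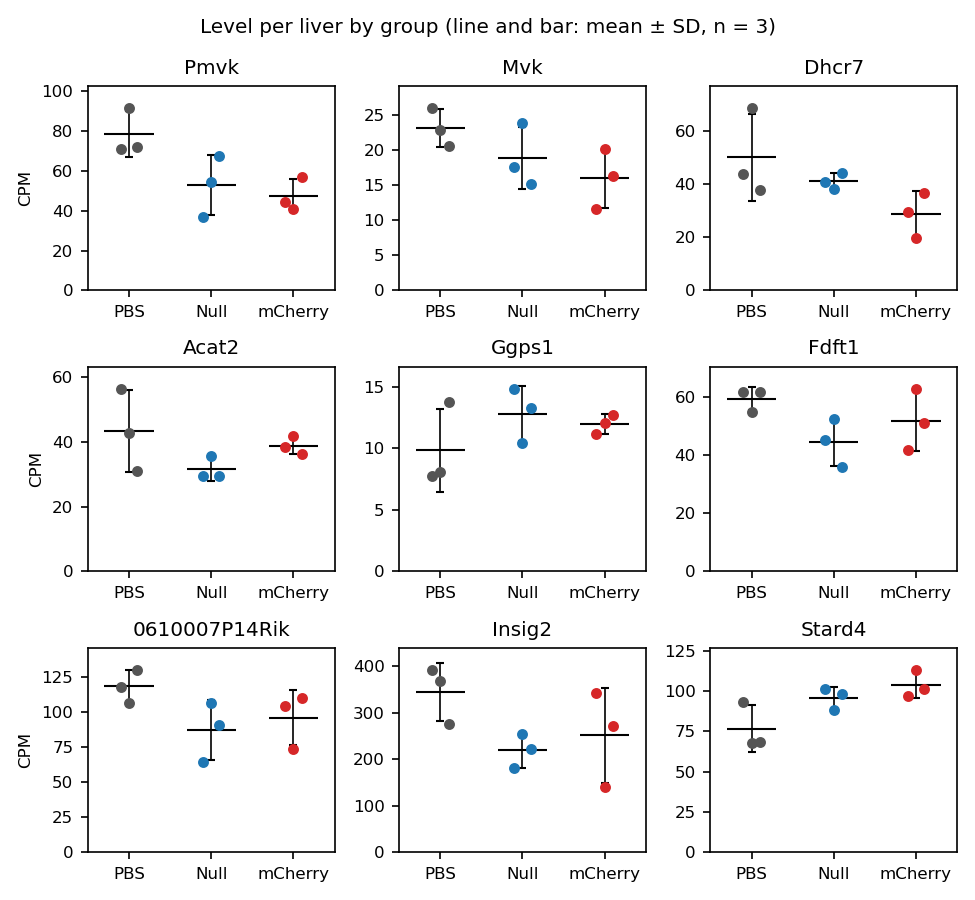
CPM (vertical axis) of 9 genes in each liver by group, with points for the mice and the mean ± SD (n = 3) as a line and bar. Pmvk is higher by value in all PBS livers than in any vector livers, and Dhcr7 is lowest in the AAVrh.10mCherry livers. For both genes the nearest livers of the groups lie close together. The ranges of Ggps1 overlap through 1 PBS liver.

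Livers within a group differed by more than the group means did. The 26 genes summed to 1927 (mouse 2) to 3394 (mouse 1) CPM, with group means of 2885 ± 577 in PBS, 2476 ± 584 in AAVrh.10Null and 2576 ± 419 in AAVrh.10mCherry livers (SD, n = 3). Mouse 1 (PBS) was highest for 8 of the 26 genes, mouse 7 (PBS) lowest for 9 and mouse 2 (AAVrh.10Null) lowest for 6. The same was not counted over all genes, so these counts are not read as a trait of the pathway. The sum over the enzymes that make HMG-CoA varied 2.97-fold between livers, and the sum from lanosterol to cholesterol varied 1.65-fold.

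Mouse 7 was low for enzymes in several parts of the pathway. It lay below the other 8 livers for Hmgcs1, Mvd, Idi1, Sqle, Cyp51, Msmo1, Nsdhl, Hsd17b7 and Ebp. Sqle stood at 10.3 CPM (exact 95% Poisson interval 2.12 to 30.1, counting error only) against at least 35.6 in the other 8. Cyp51 stood at 58.4 (34.0 to 93.4) against at least 104.2, and Hsd17b7, a reductase of sterol demethylation, at 10.3 (2.12 to 30.1) against at least 37.9. For these 3 genes the interval ended below the lowest of the other livers. When all 3600 barcodes of mouse 7 were counted, which raised its depth to 1083091 UMIs, Sqle stood at 12.9, Cyp51 at 59.1 and Hsd17b7 at 13.9, and 11 of the 26 genes lay below the other livers, Stard4 among them. How many of all genes were lowest in mouse 7 was not counted, so whether this is particular to the pathway was not tested. Insig1 and Insig2, at 275 each, and Pmvk, at 72.1, lay within the range of the others. Mouse 7 also had the highest sums of stellate cell markers (566 CPM, with 1 of 8 markers at 0, against 53.7 to 188 in the others) and of B cell markers (72.1, with 3 of 5 at 0, against 1.60 to 13.9), and their part in these levels was not tested.

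**Figure D3:**
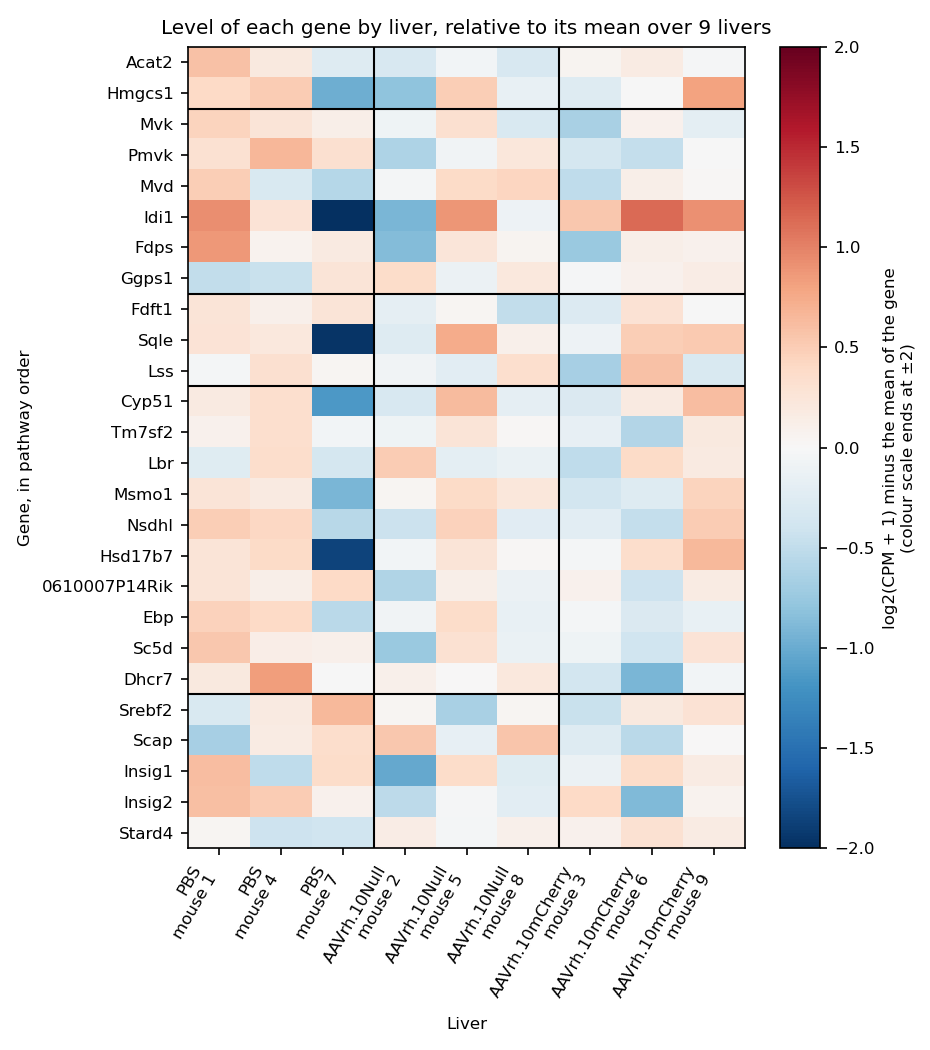
Level of each of the 26 genes (rows, in pathway order, with lines between the steps) in each liver (columns, by group), as log2(CPM + 1) minus the mean of the gene over the 9 livers; the colour scale ends at ±2. Mouse 7 shows the deepest blue cells, at Idi1, Sqle, Hsd17b7 and Cyp51, mouse 2 is blue for Hmgcs1, Idi1, Fdps and Insig1, and mouse 1 is mostly red.

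Some enzymes from different steps had a similar order of levels over the 9 livers. Hmgcs1 was taken as the reference after its spread had been seen, and log2(CPM + 1) of 11320 other genes was correlated with it. Cyp51 had the highest Pearson r of all of them, at 0.93 (exact permutation p = 1.93e-05, 0.156 after adjustment over 11320 genes). Its Spearman's rho was 0.95 (exact permutation p = 0.000353, adjusted 0.864), and r was 0.91 without mouse 7 and 0.88 without mice 7 and 9, the livers farthest from the median of Hmgcs1. Cyp51 stood at 58.4, 104.2 and 107 in the livers with the lowest Hmgcs1 (mice 7, 2 and 3) and at 203, 166 and 202 in those with the highest (mice 5, 4 and 9). Hsd17b7 had r of 0.79 (exact permutation p = 0.000174, adjusted 0.334) and rho of 0.93 (exact permutation p = 0.000750, adjusted 0.864). Sqle had r of 0.80 (exact permutation p = 0.00111, adjusted 0.334) and rho of 0.85 (exact permutation p = 0.00607, adjusted 0.864). Without mice 7 and 9 their r was 0.83 and 0.77. Nsdhl, a dehydrogenase of sterol demethylation, fell into 2 sets: it stood at 30.9 to 39.5 in the 5 livers with the lowest Hmgcs1 and at 61.3 to 65.6 in the 4 livers with the highest, and no correlation is given for it. Those 4 livers were mice 1 and 4 (PBS), 5 (AAVrh.10Null) and 9 (AAVrh.10mCherry), so each group was on both sides.

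Across the pathway, 6 of the 25 other genes (24%) had r above 0.7, against 4.69% of all genes, and 8 of 25 (32%) did without mouse 7, against 2.12%. The median r was 0.34 for the pathway and 0.098 for all genes, and 0.50 and -0.05 without mouse 7. Among genes with lower r were enzymes, with Fdft1 at 0.15 (0.49 without mouse 7), Dhcr7 at 0.21 (0.25) and Lss at -0.03 (-0.01), and Ggps1 had -0.63 (-0.57). Of the sterol-sensing genes, Insig1 had 0.32 (0.62 without mouse 7), Insig2 0.34 (0.48), Stard4 0.11 (-0.39), Srebf2 -0.35 (0.03) and Scap -0.47 (-0.39), so several of these values, and the sign of those of Stard4 and Srebf2, changed with 1 shallow library. No gene passed the adjusted p of r or of rho (0 of 11320). Genes of 1 library share its depth and RNA content and are not independent, and Malat1 itself had r of -0.79 with Hmgcs1.

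**Figure D4:**
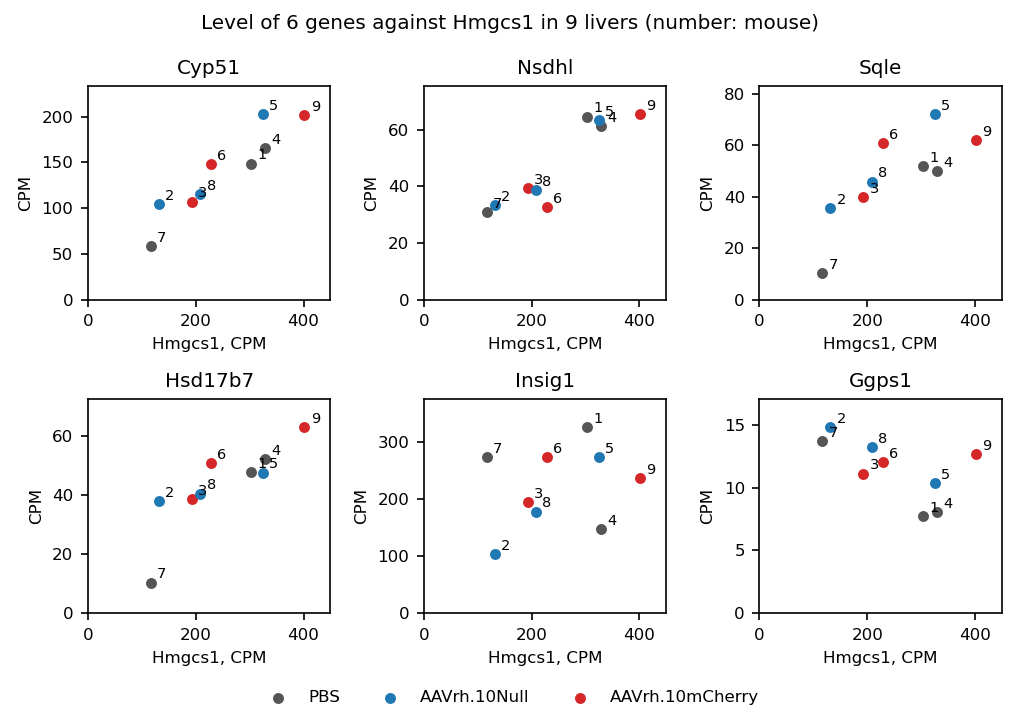
CPM of 6 genes (vertical axes) against Hmgcs1 (horizontal axes) in the 9 livers, numbered by mouse and coloured by group. Cyp51 and Hsd17b7 are higher where Hmgcs1 is, Nsdhl forms a low set of 5 and a high set of 4 livers, Insig1 is scattered (r = 0.32, and 0.62 without mouse 7) and Ggps1 is lower towards the right (r = -0.63).

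Barcodes with markers of cells other than hepatocytes held some pathway genes at other levels. In each liver, barcodes with at least 2 different markers of endothelial, Kupffer, lymphoid, stellate, bile duct or myeloid cells (84 to 304 barcodes in the 8 livers without mouse 7) were summed and set against the other barcodes of that liver, a comparison chosen after the data had been seen. With the mouse as a block in edgeR's quasi-likelihood test, 2 of the 26 genes were higher in the marked barcodes (38.8% of 9230 genes were) and 10 were lower (8.47% were). The marked barcodes were not free of hepatocyte RNA, since Alb was lower by only 0.52 on the log2 scale, and their median UMIs, 776 to 2124, were slightly above those of the other barcodes, 724 to 1987. Their sums were shallow, from 91838 to 583454 UMIs.

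Lbr and Ggps1 were the genes that were higher. Lbr encodes the lamin B receptor, an inner nuclear membrane protein that is also a sterol reductase (chr1:181815335-181843046, minus strand). Its level in the marked barcodes was 10.3, 32.5, 31.6, 35.4, 21.8, 48.7, 31.6 and 39.7 CPM in mice 1, 2, 3, 4, 5, 6, 8 and 9, and in the other barcodes of the same livers 7.33, 12.4, 4.78, 10.1, 7.48, 9.86, 7.61 and 8.92. It was higher in 8 of 8 livers, by 1.83 ± 0.26 (log2, SE; adjusted p = 1.85e-07 in edgeR), from 2 to 16 UMIs per liver in the marked barcodes. Ggps1 was higher in 8 of 8 livers by 1.11 ± 0.26 (log2, SE; adjusted p = 0.000607 in edgeR), from 3 to 12 UMIs per liver. With mouse 7 included, Lbr and Ggps1 did not pass the filter on low counts and were not tested. Tm7sf2, which encodes the other reductase of the same step, was lower in 8 of 8 by 0.37 (log2 change -0.37 ± 0.14, SE; adjusted p = 0.0267 in edgeR), so the 2 reductases lay on opposite sides.

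The 10 genes that were lower in the marked barcodes were Lss (-0.997 ± 0.27), Msmo1 (-0.59 ± 0.12), Insig1 (-0.49 ± 0.11), Acat2 (-0.45 ± 0.18), Sc5d (-0.44 ± 0.10), Fdps (-0.40 ± 0.14), Hmgcs1 (-0.37 ± 0.10), Tm7sf2, Insig2 (-0.37 ± 0.10) and 0610007P14Rik (-0.34 ± 0.12; log2, SE). Lss rested on 0 to 10 UMIs per liver in the marked barcodes and was lower in 7 of 8 livers. Scap (0.09 ± 0.16), Srebf2 (0.07 ± 0.36), Fdft1 (-0.04 ± 0.16) and Sqle (-0.05 ± 0.16) did not pass. The median of all genes was 0.36 in this comparison. With TMM scaling, which moved it to -0.06, 20 of the 26 were lower (23.3% of all genes were) and Lbr (1.39) and Ggps1 (0.67) were still higher (19.6% of all genes were).

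**Figure D5:**
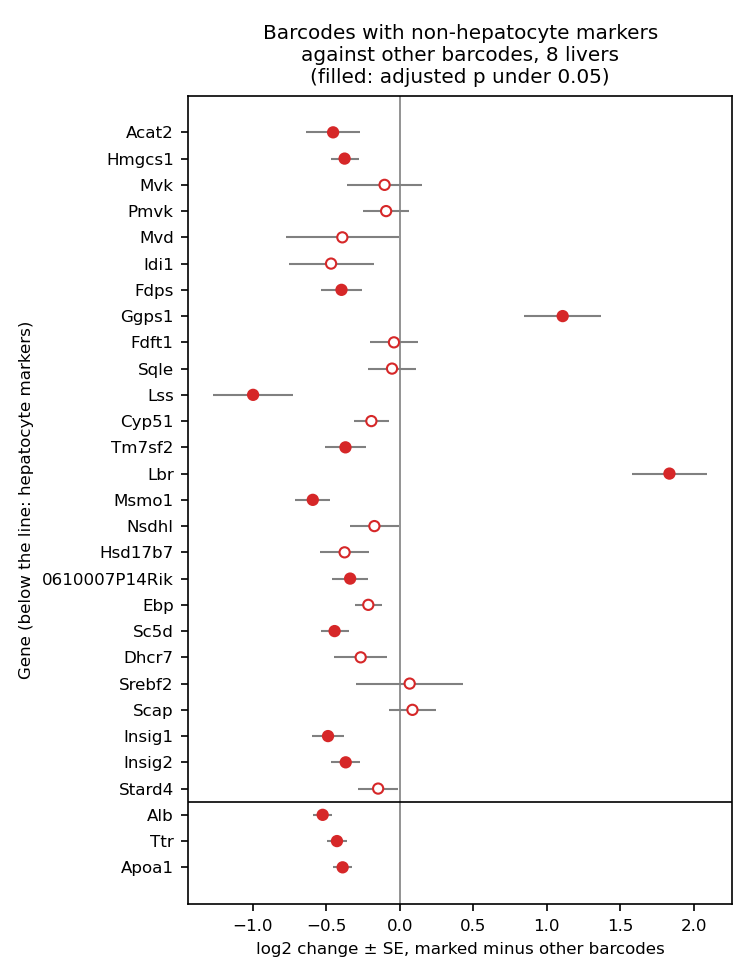
log2 change ± SE between barcodes with at least 2 non-hepatocyte markers and the other barcodes, paired by mouse over 8 livers, for the 26 genes and 3 hepatocyte markers below the line; filled points have an adjusted p under 0.05. Lbr (1.83) and Ggps1 (1.11) stand apart on the right, and 20 of the 26 genes lie between Alb (-0.52) and 0.

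The surrounding sterol and lipid genes were read from 7 lists, and 0 of their genes passed the adjusted test in any of the 4 comparisons (edgeR, DESeq2 and limma-voom alike). At an unadjusted edgeR p under 0.05, 8 of 81 tested genes were higher and 1 lower for AAVrh.10Null against PBS (9.92% and 2.98% of all genes). For AAVrh.10mCherry against PBS, 2 and 4 of the 81 were (8.74% and 0.786% of all genes). For the mean of both, 7 and 4 were (10.1% and 1.76%), and between the vector groups 0 and 4 (5.64% and 2.43%). In the list of SREBP processing and sterol-controlled degradation, 12 of 16 tested genes had a log2 difference above 0 for AAVrh.10Null against PBS (median 0.41, against 0.02 for all genes). Sec24a, a coat protein of the vesicles that leave the endoplasmic reticulum, stood at 48.0, 52.0 and 68.7 in PBS livers and at 112, 76.3 and 103 in AAVrh.10Null livers, a log2 difference of 0.86 ± 0.24 (SE; unadjusted p = 0.00354, adjusted p = 0.199 in edgeR). Among other sterol-regulated and uptake genes, 11 of 14 were below 0 (median -0.32), while Npc1, which exports cholesterol from lysosomes, was at 24.6, 31.5 and 34.3 in PBS and 73.2, 38.5 and 79.2 in AAVrh.10Null livers (log2 1.14 ± 0.32, SE; unadjusted p = 0.00347, adjusted p = 0.199 in edgeR). Npc1 was highest in mice 2 and 8, the livers of that group with high Malat1, and its part was not tested.

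Among genes of cholesterol efflux, esterification and conversion, 12 of 17 were above 0 for AAVrh.10Null against PBS (median 0.24). Abca1, which exports cholesterol from the cell, stood at 40.6, 54.0 and 41.2 in PBS and 83.6, 92.3 and 68.1 in AAVrh.10Null livers. The log2 difference was 0.82 ± 0.25 (SE, unadjusted p = 0.00693, adjusted p = 0.227 in edgeR). The 3 AAVrh.10Null livers lay above the 3 PBS livers, as did 12.3% of all genes. The AAVrh.10mCherry livers, at 52.4, 54.8 and 85.4, overlapped with PBS. Abcg8, a subunit of the sterol transporter into bile, had a log2 difference of 0.61 ± 0.21 (SE; adjusted p = 0.280 in edgeR). Of the SREBP1 lipogenic targets 8 of 12 were below 0 (median -0.22), with Elovl6, a fatty acid elongase, at 0.71 ± 0.27 (SE; adjusted p = 0.310 in edgeR). At an unadjusted edgeR p under 0.05, 2 of the 12 targets were higher and 1 lower for AAVrh.10Null against PBS (9.92% and 2.98% of all genes). For the mean of both vector groups against PBS, Elovl5 was at -0.875 ± 0.29 and Acaca at 0.89 ± 0.31 (SE, adjusted p = 0.317 and 0.337 in edgeR). The mitochondrial counterparts of the HMG-CoA steps (2 of 4 below 0), the electron donors of sterol enzymes (5 of 7) and the other isoprenoid branches (4 of 11) had no gene with an unadjusted p under 0.05 for AAVrh.10Null against PBS.

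Some of the genes overlap others in the GENCODE M21 annotation, and whether the counting used the strand was not given in the sources used here. Fdps shares 7512 bases on the same strand with Gm43738, and Tm7sf2 shares 532 with Vps51. Fdft1 overlaps Ctsb over 774 bases on the opposite strand. Reads of these genes could have been divided or added, and their levels are uncertain to that extent.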

How the data were processed

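Drop-seq libraries of 9 livers, 3 per group, were analysed. Sequencing ran for 101 cycles on a HiSeq 2500, per the labels' protocols, and demultiplexing used bcl2fastq 2.19, per the deposited readme. The submitters' processing notes name mm10 and Seurat. For the aligner, counting tool, annotation and barcode threshold, a statement is not given in the sources used here. Each deposited file holds unscaled whole-number UMI counts for the genes and barcodes of 1 liver. The pathway genes and lists were chosen with earlier results of these data known.

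UMIs of barcodes with at least 200 genes were summed per liver and scaled to CPM of all UMIs. In R 4.3.3, edgeR 4.0.16 (filterByExpr, quasi-likelihood, no TMM factors) was fitted to all 9 livers with group as the only term, with Benjamini-Hochberg adjustment over all genes of a comparison and a threshold of 0.05. The standard error was taken as the log2 change divided by the square root of F. DESeq2 1.42.0 and limma 3.58.1 were alternatives. On simulated counts for AAVrh.10Null minus PBS (11096 genes), edgeR recovered 16.5% of 2-fold and 88.5% of 4-fold changes. The biological coefficient of variation was 0.271. Python 3.11.15, numpy 2.4.6, scipy 1.17.1 and pandas 2.3.3 were used for sums, correlations and sequences, and matplotlib 3.10.9 for plots. Genes with values in every liver are those with an unadjusted p under 0.05 in any comparison or with groups that do not overlap, the leading 2 where fewer passed, and those that the correlation and the mouse 7 results turn on, which were chosen after their values were seen. Genes named from the other lists are among the 3 of smallest p of their list, and not all of those are named. Intervals cover counting error only. Doublets were not removed. The labels number the mice, so p-values cover the spread between mice.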

Additional observations from a re-analysis of the deposited data

Results flagged for a closer look

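Barcodes with under 200 genes were left out of all levels above, yet they held UMIs of the pathway genes in livers without and with a vector. In mouse 7 (PBS), 3050 such barcodes held 1677 UMIs of the 26 genes, 2118 CPM of their 791753 UMIs, and all 26 genes were seen. In mouse 6 (AAVrh.10mCherry), 17 such barcodes held 11 UMIs of 9 of the genes. In the other 7 livers 2 to 12 such barcodes held 0 UMIs of them.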

How the results depend on the processing

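In 23 alternatives, none of the 26 genes passed in any comparison where it was tested, with a smallest adjusted p of 0.0986 (barcodes with at least 500 genes, AAVrh.10Null minus PBS). The values of 16 single-gene differences kept their direction in 361 of 362 cases; Acat2 between the vector groups came to 0 after thinning to 291338 UMIs per liver. Counts over all genes moved. For AAVrh.10Null minus PBS, 44 genes were called with DESeq2, 385 without a filter, 76 with at least 500 genes per barcode, and 0 with limma-voom, with a mean of at least 5 CPM or without mice 2 and 8, and 0 to 6 without 1 mouse (6 without mouse 5). For AAVrh.10mCherry minus PBS, 2 were called with DESeq2, 139 without a filter and 1 after thinning, and for the mean of both vector groups 7 with DESeq2 and 246 without a filter. For AAVrh.10mCherry minus AAVrh.10Null, 3 were called with TMM, 179 without a filter, 2 without barcodes ending in an undetermined base, 2 after thinning, 0 with DESeq2, limma-voom, the mean of at least 5 CPM, all barcodes, only the 2 groups or without mice 2 and 8, and 0 to 4 without 1 mouse (4 without mouse 5). Pathway genes below 0 numbered 10 after thinning (AAVrh.10Null minus PBS, with fewer genes tested) and 19 without mice 2 and 8 (AAVrh.10mCherry minus AAVrh.10Null). In the marked barcodes, 20 genes were lower with TMM (23.3% of all genes), and 0 were higher and 11 lower over all 9 livers (38.6% and 15.6% of all genes), where Lbr and Ggps1 did not pass the filter. Other causes were not tested. The marked-barcode and correlation settings were chosen after seeing the data. No paired analysis was possible because the groups share no replicate numbers. Depth limits mouse 7 most, with 0 to 151 UMIs per gene.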
